A study of Marmota monax with 203 samples.

Results

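The 6 genes described here encode the ISG15 conjugation system: the ubiquitin-like modifier ISG15, its activating enzyme UBA7, its conjugating enzyme UBE2L6, the ligases HERC5 and HERC6, and USP18, the protease that takes ISG15 off its targets. They were chosen by symbol, as known components of the system, among the 17587 genes that the deposited tables hold. All 6 passed the filter on low counts at each of the 8 weeks compared. They were followed in liver biopsies of woodchucks (*Marmota monax*) given woodchuck interferon-α (wIFN-α) or placebo.

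ISG15 is made as a small protein that is joined to lysines of other proteins by a chain of enzymes. UBA7 (E1) activates it, UBE2L6 (E2) carries it, and a HERC ligase (E3) passes it to proteins that are often still on the ribosome. HERC5 is the main ligase in human cells, whereas mice lack HERC5 and use HERC6. USP18 reverses the reaction and also binds the interferon receptor chain IFNAR2, where it damps signalling, so that the system is both an effector and a brake of the type I interferon response. Its genes are classical interferon-stimulated genes, and USP18 and ISG15 are known from human liver as genes that are raised before therapy in some patients with chronic viral hepatitis.

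All animals, placebo controls included, were born in captivity, were inoculated with woodchuck hepatitis virus (WHV, strain WHV7-11 in the inoculum cWHV7P2a) when 3 days old, and were chronic carriers as adults. Vehicle was injected in 12 placebo animals. In 11 animals wIFN-α was injected instead, at 20 μg (low dose) from week 0 and at 100 μg (high dose) from week 7, under the skin 3 times a week to week 15. Biopsies at weeks 0, 3, 7, 11 and 15 were taken 6 hours after a dose, the one at week 0 after the first low dose and the one at week 7 after the first high dose. Those at week -3 came before treatment and those at weeks 19 and 23 came after it had ended. The sample labels count the same biopsies 1 week later from the first dose on. At weeks -3, 0, 3, 7, 11, 15, 19 and 23 there were 11, 11, 9, 9, 8, 8, 6 and 6 wIFN-α animals and 12, 12, 12, 12, 10, 9, 5 and 9 placebo animals of both sexes. One more wIFN-α animal, M1004, stayed out of the comparisons as it did in the study, where it was judged to be probably clearing the virus on its own.

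The 149 biopsies held 12072840 to 84805845 reads on genes, with a median of 28754894. The lowest count of a member in a biopsy was 11 reads (ISG15 in F1016 at week -3). Levels of single genes are given as counts per 1000000 reads on genes (CPM) after TMM scaling, which evens out library composition, and summed levels of marker lists as CPM without it. Hepatocyte markers (ALB, APOA1 and 10 others) were at or above a median of 1 CPM for 12 of 12 genes in placebo, treated and off-treatment biopsies. A few libraries stood apart in the levels of markers or members. In 5 biopsies over 5% of reads lay on 20 skeletal muscle genes, and 2 of these, F1016 and F1018 at week -3, had a summed hepatocyte marker level of 372 and 263 CPM where the other biopsies of their groups had 104171 to 189688, so that the data went against their liver label. The library labelled F1013 at week 3, in the 20 μg period, had all 6 members inside or below the placebo range of that week. Whether it holds the animal and the dose on its label was not tested, so the week 3 fold changes are given with and without it. In bulk tissue, fewer cells of a type and less RNA per cell cannot be told apart.

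**Figure D1:**
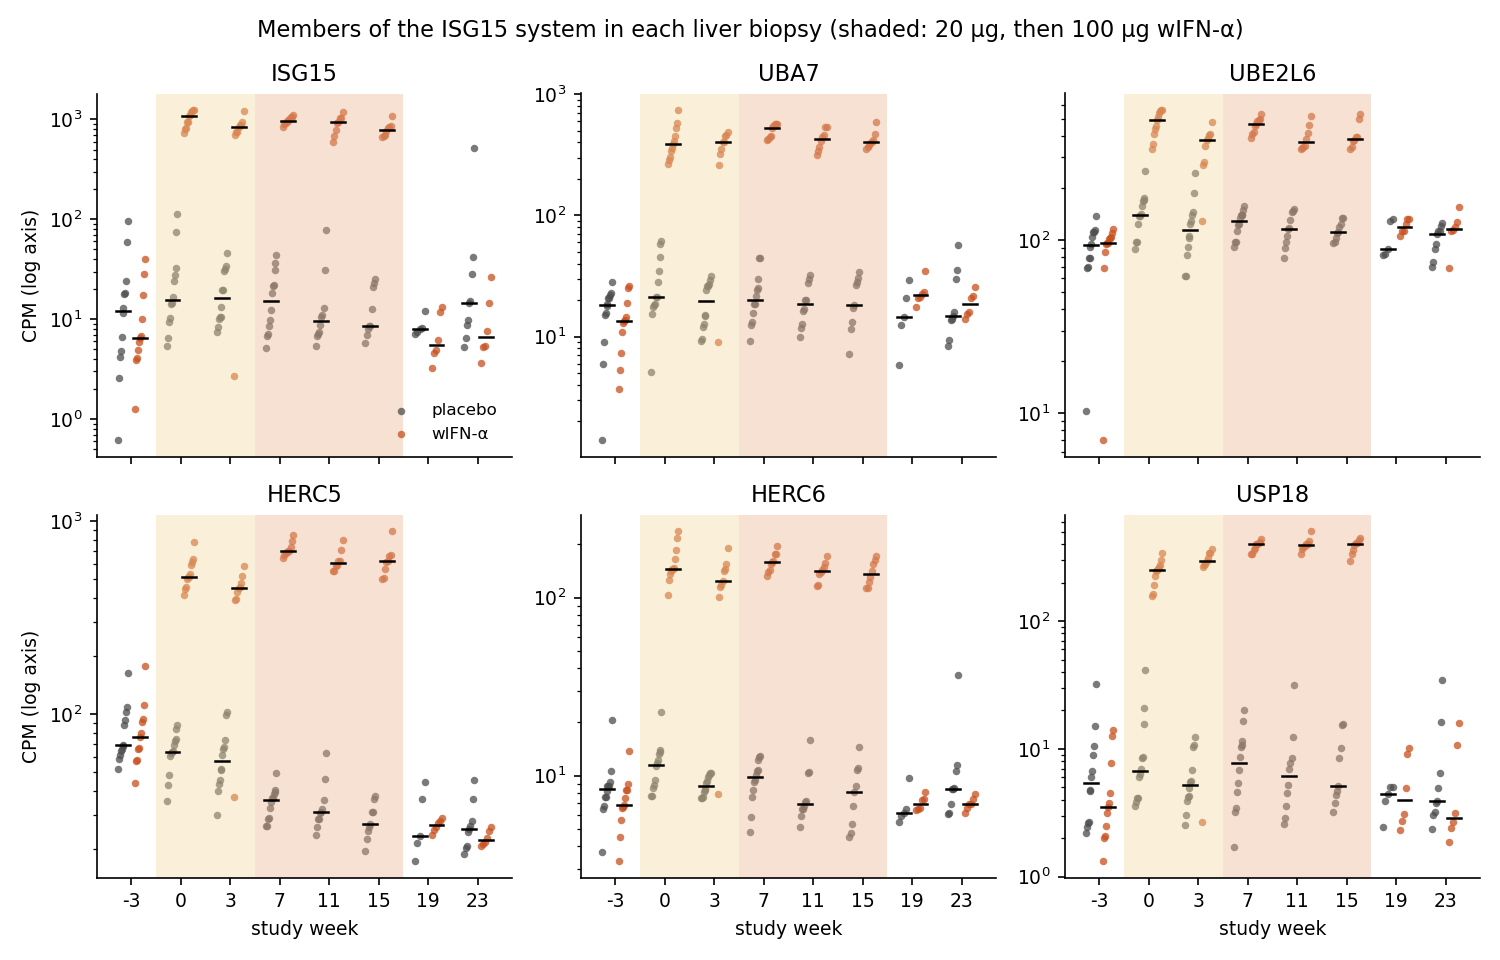
CPM of each member in every biopsy (log axis) against study week, grey for placebo and orange for wIFN-α, with a black line at the median of each group. On treatment the orange points lie above all grey points of the same week, except the 1 biopsy of F1013 at week 3, and at weeks 19 and 23 the arms overlap again.

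ISG15, the modifier itself, had the largest log2 fold change of the 6 at weeks 0, 7, 11 and 15, and USP18 had it at week 3. In placebo livers it lay between 5.41 and 114 CPM at week 0 (median 15.5, n = 12), and 6 hours after the first 20 μg dose it lay between 726 and 1243 CPM (median 1089, n = 11). The 2 groups did not overlap. The fold change was 34.4 (95% interval 18 to 65.9, adjusted p = 6.96e-09), where the adjusted p throughout comes from edgeR's quasi-likelihood test over all genes of the week with Benjamini-Hochberg correction. A gene is called when this p is under 0.05 and the fold change is above 1.5. At week 3 the wIFN-α animals other than F1013 had 693 to 1220 CPM (median 859, n = 8), and F1013 had 2.68 CPM, below the lowest of 12 placebo animals (7.51 CPM). At week 7 the range was 838 to 1115, at week 11 588 to 1193 and at week 15 666 to 1074 CPM. The ranges of treated livers overlapped between these weeks, whichever the dose, and the log2 fold changes at weeks 0, 3, 7, 11 and 15 were 5.10 (SE 0.48), 5.22 (0.58), 5.71 (0.37), 5.64 (0.53) and 5.92 (0.33).

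UBA7, the activating enzyme, started near ISG15 in reads but rose less. Placebo livers held 5.09 to 61.4 CPM at week 0 (median 21.1) and treated livers 264 to 741 CPM (median 386), without overlap. Its fold change was 14.4 (9.27 to 22.5, adjusted p = 1.18e-09) at week 0 and 20.4 (13.9 to 29.8, adjusted p = 5.72e-10) at week 15, when treated livers held 356 to 590 CPM and placebo livers 7.19 to 34.3 CPM. Between these weeks its log2 fold change lay between 4.11 and 4.43.

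UBE2L6, which hands ISG15 from the E1 to the ligase, was already abundant without interferon and moved least. It stood at 88.7 to 249 CPM in placebo livers at week 0 (median 139) and at 333 to 562 CPM after the first dose (median 492). The lowest treated liver was still above the highest placebo liver. The fold change was 3.2 (2.61 to 3.93, adjusted p = 3.56e-09), and at weeks 3, 7, 11 and 15 it was 2.74, 3.65, 3.31 and 3.58. Its log2 fold change of 1.68 at week 0 ranked it 335th of 14700 genes tested, where ISG15 was 15th, USP18 28th, UBA7 45th, HERC6 49th and HERC5 83rd.

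HERC6 and HERC5 are the ligases of the system, and which of them acts in woodchuck liver was not tested. HERC6 went from 7.68 to 22.7 CPM in placebo livers (median 11.5) to 103 to 236 CPM in treated livers (median 145) at week 0, a fold change of 13.2 (10.3 to 17, adjusted p = 6.24e-14). At week 15 it was 16.9 (12.4 to 22.9), with treated livers at 113 to 172 CPM. HERC5 went from 35.5 to 88 CPM (median 63.9) to 416 to 780 CPM (median 514) at week 0, a fold change of 8.37 (6.88 to 10.2, adjusted p = 2.34e-14). It stood at 2.73 (SE 0.31) on the log2 scale at week 3 and then at 4.35 (0.11), 4.17 (0.18) and 4.47 (0.16) at weeks 7, 11 and 15. At week 15 this was a fold change of 22.2 (17.9 to 27.5, adjusted p = 1.97e-13), from a placebo range of 19.6 to 37.7 CPM and a treated range of 504 to 886 CPM.

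USP18, the deconjugating protease, was next to ISG15 in its log2 fold change by edgeR at weeks 0, 7, 11 and 15 and above it at week 3 (5.43 and 5.22). Placebo livers held 3.56 to 41.6 CPM at week 0 (median 6.66) and treated livers 157 to 343 CPM (median 251), again without overlap. Its fold change was 21.7 (12.6 to 37.5, adjusted p = 3.74e-09) at week 0, 43.2 (21.9 to 85.3) at week 3 and 49.3 (30.8 to 79, adjusted p = 3.22e-10) at week 15. Treated livers held 263 to 365 CPM at week 3 without F1013 (n = 8), 332 to 436 at week 7, 332 to 505 at week 11 and 293 to 449 at week 15.

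**Figure D2:**
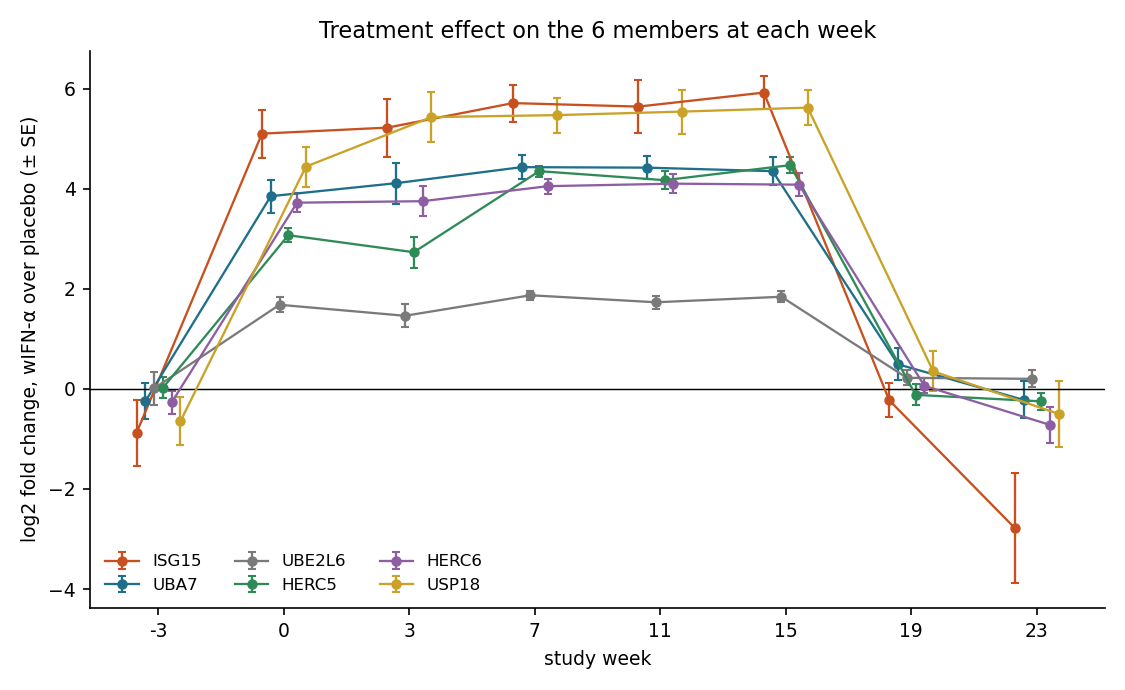
Log2 fold change of each member, wIFN-α over placebo, with its standard error, at the 8 study weeks. All 6 lines leave 0 at week 0 and return at week 19, UBE2L6 runs below the rest at 1.46 to 1.87, HERC5 steps from 2.73 at week 3 to 4.35 at week 7, and the low ISG15 value at week 23 (-2.78) goes with 1 placebo animal.

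All 6 members were called higher at each of the 5 weeks on treatment. The share of all tested genes called higher was 10.3% at week 0, 7.24% at week 3, 11.4% at week 7, 12.6% at week 11 and 13.4% at week 15. Full separation of the arms was counted for the members only, so no share over all tested genes stands beside it. At weeks 0, 7, 11 and 15 each treated liver lay above each placebo liver of its week for all 6 genes. At week 3 this held for 8 of 9 treated livers. The exception for each gene was the library labelled F1013, which had 2.68 CPM of ISG15, 9.08 CPM of UBA7, 129 of UBE2L6, 37.4 of HERC5, 7.85 of HERC6 and 2.68 of USP18, where the other 8 animals had at least 693, 261, 272, 392, 101 and 263 CPM. Libraries labelled with the same animal had 1228 CPM of ISG15 at week 0 and 1064 at week 7. Its week 3 biopsy held hepatocyte markers at 122140 CPM, above the 77800 to 117458 of the others, and leukocyte markers at 321 CPM (316 to 470 in the others). Without F1013 the log2 fold changes at week 3 were 5.39 for ISG15, 4.27 for UBA7, 1.56 for UBE2L6, 2.89 for HERC5, 3.90 for HERC6 and 5.60 for USP18.

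Before treatment the arms did not differ by the test. No member was called at week -3, with edgeR, DESeq2 or limma-voom, and none had an unadjusted p under 0.05. Of all 14963 genes 0.0% were called (130 at an unadjusted p under 0.05). The log2 difference was widest for ISG15, at -0.88 (95% interval -2.17 to 0.41), from 1.26 to 40.1 CPM in the wIFN-α arm (median 6.56) and 0.616 to 95.7 CPM in the placebo arm (median 12.2). The lowest value of each arm was one of the 2 biopsies low in hepatocyte markers, and without them the difference was still -0.88.

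**Figure D3:**
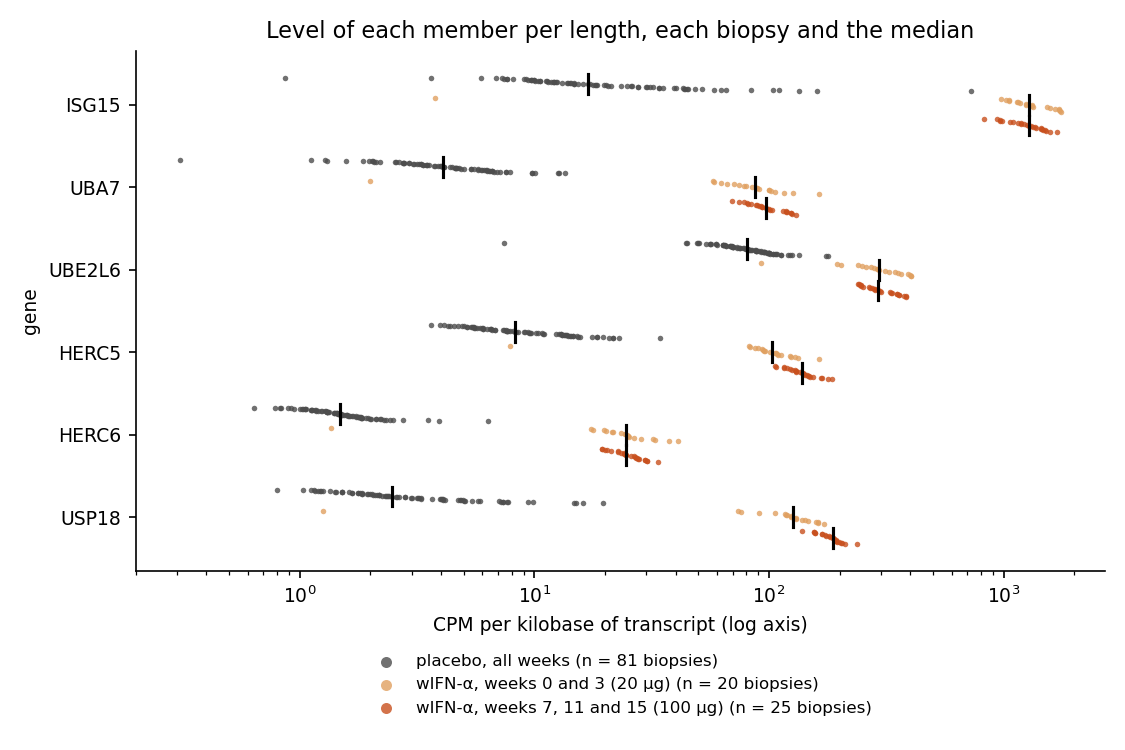
CPM per kilobase of transcript (log axis) of each member in every biopsy, in placebo livers of all weeks, wIFN-α livers at 20 μg and wIFN-α livers at 100 μg, with a black line at the median. UBE2L6 leads in placebo livers at a median of 80.7, and ISG15 leads in treated livers at 1282 and 1284, with the single low orange point in each row from F1013.

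The make-up of the system was compared per length of transcript, since the transcripts in the authors' assembly run from 711 bases for ISG15 to 5793 bases for HERC6. In the 81 placebo biopsies of 12 animals the order of the medians was UBE2L6 (80.7 CPM per kilobase), ISG15 (16.9), HERC5 (8.29), UBA7 (4.09), USP18 (2.47) and HERC6 (1.48). UBE2L6 was above ISG15 in 74 of the 81 biopsies, and it made up a median of 67.8% of the summed level of the 6. The neighbours UBA7 and USP18 were the least separated, with UBA7 higher in 57 biopsies. In treated livers ISG15 took the first place that UBE2L6 had held. At 100 μg (25 biopsies of 9 animals) the order of the medians was ISG15 (1284 CPM per kilobase), UBE2L6 (293), USP18 (187), HERC5 (138), UBA7 (97.3) and HERC6 (24.7). ISG15 was above UBE2L6 in all 25 biopsies and made up a median of 63.2% of the sum, and each further step of the order was kept in at least 24 of 25 biopsies. At 20 μg (20 biopsies) the order was the same but USP18 and HERC5 were close, at 126 and 103, with USP18 higher in 13 of 20. USP18 thus moved from the fifth place in placebo livers to the third in treated livers, while HERC6, the other ligase, was last throughout. Reads per length compare messages only and say nothing of protein.

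Since the dose rose from 20 to 100 μg at week 7, the treatment effect was next compared between weeks, in a single fit of all weeks. HERC5 was the 1 member whose effect was called different between the high and the low dose, and dose and time on treatment cannot be told apart in this design. Its effect at week 15 was larger than the mean of weeks 0 and 3 by 1.55 on the log2 scale (SE 0.25, adjusted p = 1.1e-05), against 1.93% of 16232 genes called larger. From week 3 to week 7 it grew by 1.60 (SE 0.27, adjusted p = 0.000344), where 0.333% of genes were called larger. No gene had a smaller p than HERC5 in this step. Without F1013 the differences of HERC5 were 1.51 and 1.45. For the other members the difference of week 15 from weeks 0 and 3 was 0.73 for ISG15 (95% interval -0.64 to 2.09) and 0.65 for USP18 (-0.43 to 1.73). It was 0.35 for UBA7 (-0.45 to 1.15), 0.32 for HERC6 (-0.24 to 0.88) and 0.25 for UBE2L6 (-0.25 to 0.76). These intervals hold both 0 and differences of about 1.7-fold or more. The intervals come from a fit that keeps F1013 at week 3. Over the alternatives, leaving out F1013 among them, the differences were 0.28 to 0.77 for ISG15 and 0.46 to 0.7 for USP18. They were 0.25 to 0.41 for UBA7, 0.25 to 0.39 for HERC6 and 0.15 to 0.31 for UBE2L6.

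Between the first and the repeated low dose (week 3 minus week 0) no member was called, where 2.4% of genes were. USP18 had the widest difference, 0.99 (-0.15 to 2.14), and no member had an unadjusted p under 0.05. Over the alternatives, leaving out F1013 among them, the USP18 difference ran from 0.61 to 1.17. Between the first and the last high dose biopsy (week 15 minus week 7) no member was called either, with differences from -0.09 for UBA7 to 0.19 for ISG15 and 0.0246% of all genes called. DESeq2 gave no member call in either comparison.

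Both arms moved in the step of HERC5. In placebo livers, without any interferon, HERC5 had medians of 68.9, 63.9 and 56.9 CPM at weeks -3, 0 and 3, and of 35.8, 31, 27.1, 23.5 and 25.5 CPM at weeks 7, 11, 15, 19 and 23. At week 3 the 12 placebo animals lay between 30 and 103 CPM, and at week 7 between 26.3 and 49.5 CPM. Treated livers went the other way, from 392 to 583 CPM at week 3 (without F1013) to 646 to 849 CPM at week 7, with no overlap between these 2 weeks. Contrasts inside each arm, added after these levels were seen, put numbers on both moves. From weeks 0 and 3 to weeks 7, 11 and 15 HERC5 fell by 0.92 on the log2 scale in placebo animals (SE 0.12, adjusted p = 1.24e-10) and rose by 0.50 in wIFN-α animals (SE 0.13, adjusted p = 0.00127). It was lower in the later weeks in 12 of 12 placebo animals and higher in 9 of 9 treated animals with biopsies in both periods. From week 3 to week 7 alone the fall in the placebo arm was -0.78 (SE 0.18, adjusted p = 0.00124) and the rise in the wIFN-α arm 0.82 (SE 0.20, adjusted p = 0.00773). Without F1013 the rise was 0.65 (adjusted p = 0.0446).

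**Figure D4:**
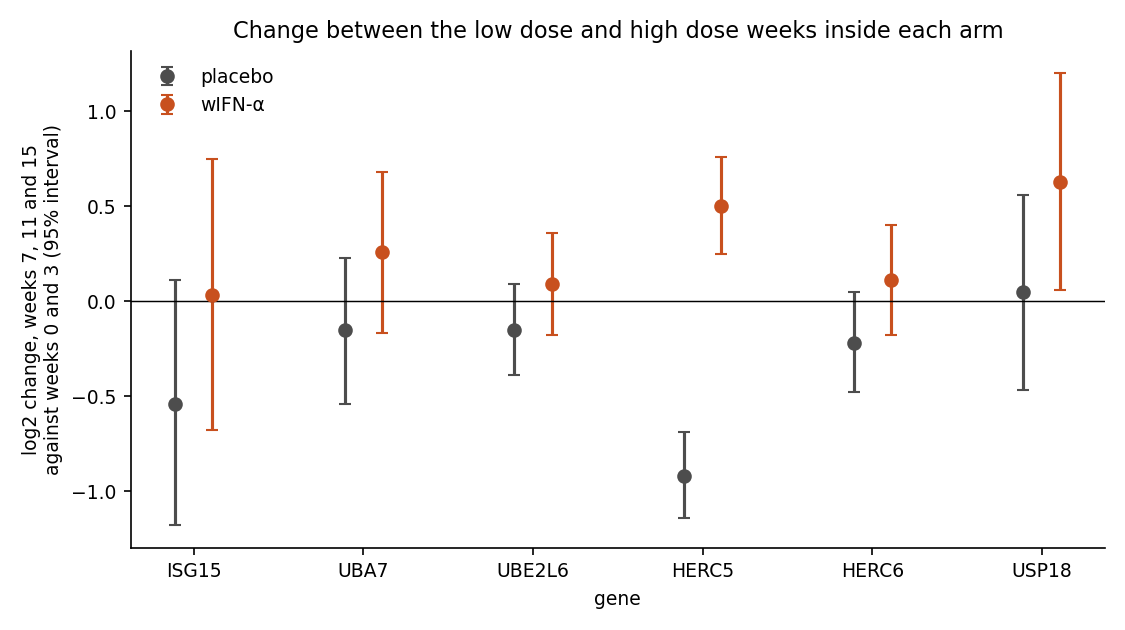
Log2 change of each member from weeks 0 and 3 to weeks 7, 11 and 15 inside the placebo arm (grey) and inside the wIFN-α arm (orange), with 95% intervals. HERC5 is the member with an interval clear of 0 in both arms, at -0.92 and 0.50, and USP18 has one just clear of 0 in the wIFN-α arm (0.63).

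Such a change over time was common in the placebo arm. Of 16232 genes, 22.8% were called lower in the later weeks there and 10.5% from week 3 to week 7, while 18.9% were called higher in the later weeks of the wIFN-α arm and 2.16% from week 3 to week 7. HERC5 was thus 1 of many genes to fall there, and no other member was called in the placebo arm. Their changes were -0.54 for ISG15, -0.22 for HERC6, -0.15 for UBA7, -0.15 for UBE2L6 and 0.05 for USP18. In the wIFN-α arm USP18 changed by 0.63 (SE 0.29, adjusted p = 0.0802), higher in the later weeks in 9 of 9 animals, and with the animal as a block it was called at 0.62 (adjusted p = 0.0246, range over the alternatives 0.0246 to 0.199).

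Skeletal muscle reads also moved with the HERC5 level. The 4 biopsies over 5% muscle that were not on treatment had the highest or second highest HERC5 of their group, with 177 CPM in F1018 and 163 in F1016 at week -3 and 103 in F1021 and 99.1 in M1011 at week 3, where the other biopsies of these groups reached at most 111, 109 and 73.1 CPM. The summed level of the 20 muscle genes in placebo livers had a median of 3859 CPM at weeks 0 and 3 (336 to 117286) and of 1061 CPM at weeks 7, 11 and 15 (249 to 11997). Its part in the level of HERC5 was not tested beyond leaving biopsies out. Without the biopsies over 5% the fall in the placebo arm was -0.83 (adjusted p = 4.45e-10). The HERC5 effect at week 15 then exceeded the mean of weeks 0 and 3 by 1.45. In the same subset UBE2L6 too was called lower in the placebo arm, at -0.23 (adjusted p = 0.0291, range over the alternatives 0.0291 to 0.464). Mean HERC5 in placebo livers was lower in the later weeks in each of the 6 sequencing lanes that held both periods, for example at 74.3 and 32.2 CPM in lane 3.

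After treatment the levels of the arms overlapped again for each member. At week 19 the 6 formerly treated animals held 3.26 to 13.2 CPM of ISG15 (median 5.56), and the 5 placebo animals held 7.07, 7.53, 7.95, 8.15 and 12 CPM. No member was called at week 19, by edgeR, DESeq2 or limma-voom, and none had an unadjusted p under 0.05, while 0.0% of 14715 genes were called (1859 at an unadjusted p under 0.05, and 89 called by DESeq2). The interval of the fold change ran from 0.538 to 1.36 for ISG15 and from 0.953 to 1.42 for UBE2L6. HERC5 had gone to 23.6 to 29.1 CPM, below the 43.9 CPM that was the lowest of the same arm before treatment, and placebo livers at week 19 had 17.3 to 44.8 CPM.

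At week 23 no member was called either, with 0.0% of 14956 genes called (2416 at an unadjusted p under 0.05, and 53 called by DESeq2, none of them a member). ISG15 had a log2 difference of -2.78 (SE 1.09, unadjusted p = 0.0209, adjusted p = 0.275), with 3.66 to 26.4 CPM in the wIFN-α arm (median 6.56) and 5.3 to 518 CPM in the placebo arm (median 14.6). A single placebo animal, M1005, made most of this gap. Without it the difference was -0.61 (adjusted p = 0.604).

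The week 23 biopsy of M1005 had ISG15 at 518 CPM, below the lowest treated liver of week 11 (588 CPM), while the other 8 placebo animals had 5.3 to 41.6 CPM and M1005 itself had 4.2 to 10.9 CPM in its 7 earlier biopsies. The other members went along in part. USP18 was at 34.4 CPM (others 2.37 to 16.3) and HERC6 at 36.6 CPM (6.09 to 11.5), whereas UBA7 at 30 CPM (8.44 to 57.3), UBE2L6 at 95.1 CPM (69.6 to 126) and HERC5 at 36.5 CPM (18.8 to 45.4) lay inside the range of the others. Against the median of the other placebo animals, ISG15 was the first of 16232 genes in this biopsy by log2(CPM + 1), USP18 the 14th and HERC6 the 58th, and UBE2L6 was the 11279th. The summed hepatocyte marker level was 58897 CPM, below the 76824 to 143028 of the others, and leukocyte markers were at 359 CPM (275 to 700).

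In the 104 biopsies off treatment, deviations from the mean of the own group and week were most alike for ISG15 and USP18 (Pearson r = 0.88), ISG15 and HERC6 (0.78) and HERC6 and USP18 (0.68). UBA7 and UBE2L6 followed ISG15 less (0.38 and 0.27) and HERC5 ran slightly against it (-0.19). Without the week 23 biopsy of M1005 and the biopsies over 5% muscle these values were 0.91, 0.69, 0.67, 0.28, 0.09 and -0.19 (n = 99). Without that biopsy and the placebo animal F1021, which is described next, they were 0.82, 0.63, 0.50, 0.50, 0.38 and -0.35 (n = 96). UBA7 then went with HERC6 (0.64) and UBE2L6 (0.59) more than HERC6 did with USP18, so that the order of the pairs rests in part on F1021. This last set kept the biopsies over 5% muscle of other animals. For UBA7 and UBE2L6 r was 0.59 in all 104 biopsies too, and 0.47 in the 99 without biopsies over 5% muscle. The points share animals, since 23 animals gave these biopsies, and are given as a description. The spread itself also differed, with a standard deviation of 1.2 on the log2 scale for ISG15 and 0.90 for USP18, against 0.75 for UBA7, 0.58 for UBE2L6, 0.43 for HERC6 and 0.41 for HERC5.

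**Figure D5:**
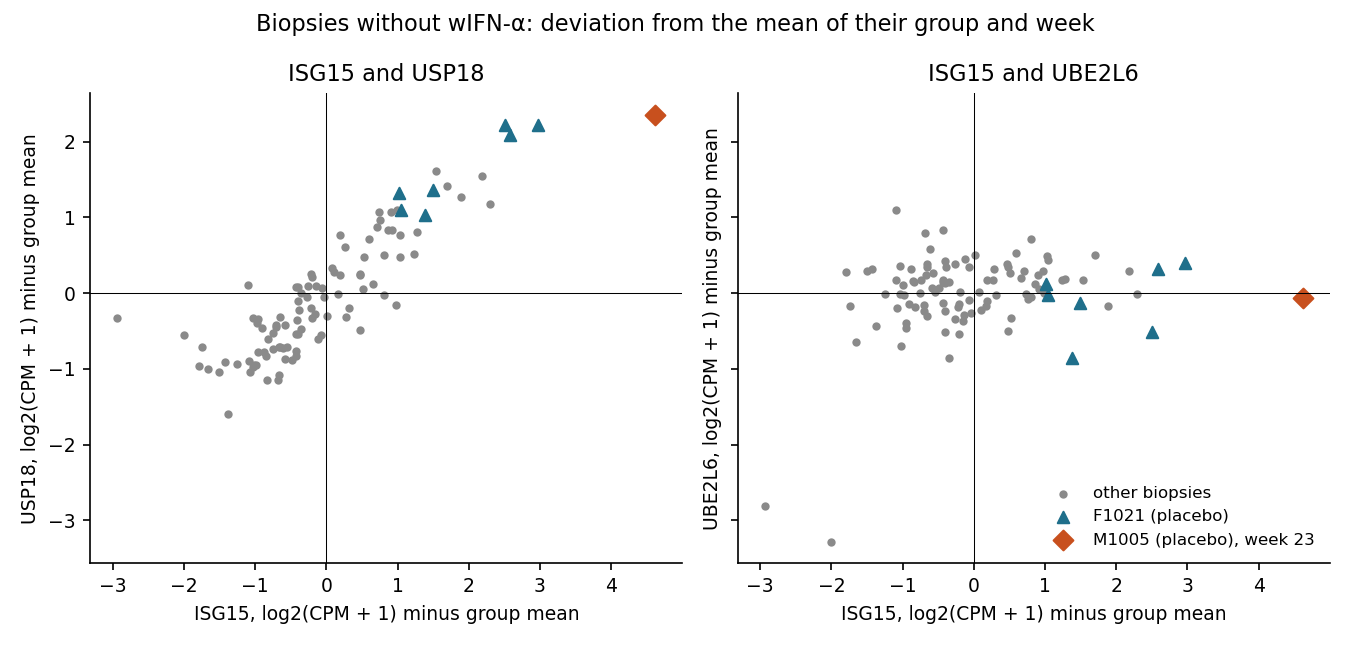
Deviation of log2(CPM + 1) from the mean of the own group and week, ISG15 on the horizontal axis and USP18 (left) or UBE2L6 (right) on the vertical axis, in the 104 biopsies off wIFN-α. USP18 rises with ISG15 (r = 0.88) while UBE2L6 follows it less (0.27), F1021 (triangles) lies to the right in all 7 of its biopsies, and the 2 lowest UBE2L6 points are F1016 and F1018 at week -3.

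One placebo animal, F1021, had the highest or second highest ISG15 and USP18 of the placebo arm in all 7 of its biopsies. It had 95.7, 114, 46.4, 44.4, 78.3, 25.1 and 41.6 CPM of ISG15 at weeks -3, 0, 3, 7, 11, 15 and 23 and was the highest placebo animal at 6 of these 7 weeks, second only to M1005 at week 23. For USP18 (32, 41.6, 12.5, 20, 31.4, 15.7 and 16.3 CPM) the same was true. At week 15 the lead was small, as M1011 had 22.8 CPM of ISG15 and 15.4 CPM of USP18. No biopsy at week 19 came from F1021, and its week 3 biopsy was among those over 5% muscle. HERC6 was highest in this animal at 3 weeks, HERC5 at 1, and UBA7 and UBE2L6 at none. Among the formerly treated animals F1014 and M1012 had the highest ISG15 at weeks 19 and 23 (13.2 and 26.4 CPM in F1014, 11.7 and 14.7 in M1012) and the highest USP18 (9.1 and 16, 10.1 and 10.7 CPM). Before treatment, at week -3, ISG15 and USP18 were at 28.4 and 12.7 CPM in F1014 and at 6.82 and 3.49 CPM in M1012. Both animals were singled out after their values were seen.

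The spread on treatment turned on the week 3 biopsy of F1013. Leaving it out, the standard deviation within a week was 0.26 on the log2 scale for ISG15, 0.23 for USP18, 0.32 for UBA7, 0.24 for UBE2L6, 0.21 for HERC5 and 0.26 for HERC6 (44 biopsies). With that biopsy it was 1.2 for ISG15, 0.98 for USP18, 0.85 for UBA7, 0.32 for UBE2L6, 0.57 for HERC5 and 0.64 for HERC6, which is at or above the spread off treatment for each gene but UBE2L6. Off treatment, without the week 23 biopsy of M1005 and the biopsies over 5% muscle, it was 1.04 for ISG15, 0.87 for USP18, 0.68 for UBA7, 0.32 for UBE2L6, 0.35 for HERC5 and 0.37 for HERC6 (99 biopsies). In these 44 biopsies of 11 animals r was 0.12 between ISG15 and USP18, and the largest r was between HERC5 and HERC6 (0.63). With F1013 at week 3 kept, all 15 pairs had r of at least 0.67, so that this biopsy set them.

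Female and male animals did not differ detectably in their response. In the interaction of sex and treatment at week 0 no member was called, with 0.0% of 15341 genes called, and by DESeq2 there were no calls either. No member had an unadjusted p under 0.05 (381 genes did). The interval of the log2 difference was -0.48 to 0.60 for HERC5 but -1.47 to 1.76 for ISG15, so that a difference of 2-fold in ISG15 was not detectable with these animals. Within each of 7 sequencing lanes the mean of treated livers was above that of placebo livers for each member. The mean differences of log2(CPM + 1) lay between 3.88 and 6.66 for ISG15 (5.64 pooled) and between 1.28 and 2.21 for UBE2L6 (1.74 pooled). The lowest of these came from lane 2, which held the week 3 biopsy of F1013. Each biopsy was counted in the lane of its deepest run.

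The counts of related lists are read beside the shares of all genes called higher, 10.3% at week 0 and 13.4% at week 15. Of 10 other enzymes reported to act on ISG15, such as the ligase ARIH1 and the proteases USP5 and USP14, 1 was called higher at week 0 and at week 15, with a median log2 fold change of 0.09 and 0.04 (all genes -0.01 and -0.01). The gene called higher was TRIM25, a ubiquitin ligase that also acts as an ISG15 ligase, which went from 64.6 to 92 CPM in placebo livers to 117 to 229 CPM at week 0 and from 74.3 to 106 to 285 to 422 CPM at week 15. Its effect grew from 1.12 (SE 0.10) to 2.03 (SE 0.10), and the high dose difference was 0.73 (SE 0.14, adjusted p = 0.000337). The protease USP2 was called lower at week 15 (-0.66, SE 0.22), and also at week 7 (-0.61).

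Of 17 related enzymes of ubiquitin and other modifiers, 4 were called higher at week 0 and 2 at week 15, none lower, with medians of 0.01 and 0.04. They were UBA1, the main ubiquitin E1, at 0.86 and 0.84, UBA6, the other ubiquitin E1, at 0.95 at week 0, and the E2 enzymes UBE2D1 (0.90 and 0.62) and UBE2D3 (0.66 at week 0). UBE2L3, the E2 most similar to UBE2L6, and HERC1, HERC2, HERC3 and HERC4 were not called at these weeks. UBE2D1 was uneven, at 10 to 53.2 CPM in treated livers at week 0 (median 12.3) and 5.83 to 17.2 CPM in placebo livers. At week 3 its log2 fold change was -0.70 and not called, with up to 93.2 CPM in placebo livers. Of 16 other ubiquitin-like modifiers, 4 were called higher at week 0 and 2 at week 15. UBD (FAT10), which is known to respond to interferon-γ and tumour necrosis factor, went from a log2 fold change of 0.63 (SE 0.12) at week 0 to 2.19 (SE 0.38) at week 15. Treated livers lay between 11.8 and 101 CPM at week 15. The effect on UBD then exceeded the mean of weeks 0 and 3 by 1.78 (SE 0.32, adjusted p = 7.72e-05). The autophagy modifier ATG12 stood at 0.85 and 0.93, and UBB, which encodes a chain of ubiquitin units, was called at week 0 (0.61) and not at week 15.

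Proteins reported to carry ISG15 were in part interferon-stimulated themselves. Of 13, 5 were called higher at both week 0 and week 15 and 2 lower at week 0. The antiviral effectors IFIT1 (log2 fold change 4.65 and 5.36) and MX1 (3.59 and 3.47), the RNA sensor DDX58 (3.34 and 3.19), the kinase EIF2AK2 (1.40 and 1.26) and CHMP5 (1.21 and 1.07), named here to complete the count, were those called higher. PCNA, the sliding clamp of DNA replication, was among those lower at week 0 (-0.73). Of the 5 partners of USP18 and of free ISG15, the receptor chain IFNAR2, to which USP18 binds, rose by 0.95 (SE 0.13) at week 0 and 1.24 (SE 0.11) at week 15. The integrin chains ITGAL and ITGB2, the receptor of free ISG15, were called at week 15 (0.74 and 0.80) and not at week 0. Leukocyte markers moved with them, 9 of 14 being called higher at week 15 (13.4% of all genes) and 3 at week 0 (10.3%), while ITGAM was called lower at weeks 0, 3 and 7 (-1.05, -0.77 and -0.94). Their summed level in treated livers was 361 to 835 CPM at 100 μg and 161 to 511 CPM at 20 μg, against 218 to 520 CPM in placebo livers of weeks 0 to 15. The part of leukocytes in the members' levels was not tested. SKP2, a ubiquitin ligase subunit that targets USP18, was called lower at week 0 only (-0.96, SE 0.18). At weeks 3, 7, 11 and 15 it stood at -0.07, 0.07, 0.17 and 0.21.

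The genes whose pattern was most like the mean of the 6 members over the 149 biopsies, among 16226 others, were RTP4 (Pearson r = 0.991), OAS3 (0.990), OASL (0.990), IFI44L (0.988) and OAS2 (0.987). This likeness includes the difference between biopsies on and off wIFN-α, which every point shares with its group. How alike these genes and the members were inside groups was not tested. Of the members themselves, HERC6 followed the mean of the other 5 most closely (0.990), and UBE2L6 (0.874) and HERC5 (0.896) least.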

How the data were processed

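Poly(A) RNA was sequenced by the authors from both ends (50 nucleotides). Bowtie2 placed the reads on a woodchuck transcriptome that they had assembled and annotated by homology, and SAMtools counted them. They deposited, for each run, expected counts per gene, which are not normalized, and RPKM values. The RPKM the authors deposited served here only to recover transcript lengths. Runs of 1 biopsy were added up and rounded to whole numbers (203 runs, 164 biopsies). Of these 149 were compared, without 7 of M1004 and 8 taken at other times. How far runs of the same biopsy differed was measured by chi-square per degree of freedom. It was 130.9 for placebo animal M1008 at week 15, and 29.91 for F1022 at week 19 and 14.7 for M1002 at week -3 in the wIFN-α arm. In the other pairs of runs it lay between 1.132 and 4.604. The biopsies named were kept in the comparisons, and why their runs differed was not tested. The entry for the virus, at 0.00342% to 4.11% of reads, was kept out of library sizes. The quasi-likelihood test of edgeR 4.0.16 (R 4.3.3) was used with TMM factors, its filter on low counts and Benjamini-Hochberg correction over all genes tested, with each week in a fit of its own and differences between weeks in 1 fit of all weeks. Each standard error is the effect divided by the root of its F statistic, and the 95% intervals span 1.96 of them. Alternatives were DESeq2 1.42.0, limma-voom 3.58.1, no filter, all weeks in 1 fit, the animal as a block, and leaving out animals or biopsies with muscle.

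The members and lists were chosen with earlier results of these data known. By rule, all members were named at every week, list genes when called at week 0 or 15 (up to 4 in each direction, by the change at week 15), and the 5 genes most alike by correlation. Some list genes that were counted are not reported here by name. Labels tie biopsies to animals. Over 16232 genes, biopsies of the same animal deviated together (median r 0.309 over 450 pairs, 330 of them above 0.1), and those of different animals did not (-0.024 over 4409 pairs). The script was tested on simulated counts in which 200 genes were changed. For week 15, 159 of them were found among 14897 genes, with 3 false calls. For week 15 against weeks 0 and 3, 134 were found among 3997 genes, with 10 false calls. For the interaction of sex and treatment at week 0, only 85 were found among 14699 genes, with 4 false calls. In the simulation all genes had the same dispersion (spread beyond counting noise), and the changed genes were drawn from those with more reads. Simulated biopsies of an animal had nothing in common, so the false calls found do not cover repeated biopsies of the same animals. Figures were drawn with matplotlib 3.10.9.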

Additional observations from a re-analysis of the deposited data

Results flagged for a closer look

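Each member was screened in each arm and week with 4 to 10 biopsies, which gave 60 sets of values. Larger groups were not screened, and sets of different members share libraries, so the sets are not independent. In these 60 sets, 9 values lay far from the rest of their set by Dixon's criterion, which chance alone meets in about 1 of 20 independent sets. Of these, 6 came from 1 library, F1013 in the wIFN-α arm at week 3, which held 2.68 CPM of ISG15, 9.08 of UBA7, 129 of UBE2L6, 37.4 of HERC5, 7.85 of HERC6 and 2.68 of USP18. The placebo animal M1005 at week 23 gave 518 CPM of ISG15 and 36.6 CPM of HERC6. The placebo animal M1008 at week 19 gave 12 CPM of ISG15, where the other 4 had 7.07 to 8.15 CPM.

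The effect on HERC5 differed between weeks, by 1.55 on the log2 scale between week 15 and the mean of weeks 0 and 3, and by 1.60 between weeks 3 and 7. ISG15 was also high in biopsies that entered no comparison. M1004, left out of the wIFN-α arm, had 1006, 1173, 1024, 887 and 993 CPM at weeks 0, 3, 7, 11 and 15, and all 6 members were above the placebo maximum in each. Biopsies labelled as taken at death had 804 CPM in M1007 and 650 CPM in F1023, and the biopsy of M1006 labelled week 3, a time no other animal has in the labels, had 456 CPM.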

How the results depend on the processing

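The 30 effects of the members at weeks 0 to 15 stayed called in the same direction in 522 of 522 alternatives, and the 17 counts of members called were unchanged or within 1.5-fold in 232 of 236, including 122 of 122 that left out 1 animal. The other 4 counts moved. With all weeks in 1 fit, 1 member was called at week 23, ISG15 at -2.73 (adjusted p = 0.0184). Without biopsies over 5% muscle, 2 members rather than 1 were called in the placebo arm between weeks 0 and 3 and weeks 7, 11 and 15 (UBE2L6 joined at -0.23), and 2 in the wIFN-α arm between weeks 3 and 7 (UBE2L6 joined at 0.45, adjusted p = 0.0471). With the animal as a replicate block, 2 were called in the wIFN-α arm in the later weeks (USP18 joined at 0.62), and the HERC5 differences were 1.61 and 1.62. The block changed no other call of a member. The cause of these moves was not tested. The week 23 difference of ISG15 was -1.16 by limma-voom and -0.61 without M1005, and at week 11 DESeq2 put USP18 at 4.2 where edgeR gave 5.54. The sign of an effect that was not called differed in 38 alternatives. The alternatives inside arms and the one without M1005 were chosen after seeing the data. The groups held 5 to 12 animals.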

Other observations

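Other biopsies that entered no comparison gave these values. In the wIFN-α arm, F1020 at death had 53.6 CPM of ISG15 and 16 CPM of USP18, and M1002 in the biopsy labelled week 26 had 24.1 and 11.8 CPM. In the placebo arm, ISG15 was at 9.7 CPM in F1017, 13.8 CPM in M1010 and 43 CPM in F1024. M1004 had 19.7 CPM of ISG15 before treatment and 4.93 CPM at week 19. In F1023 at death HERC5 stood at 139 CPM and USP18 at 104 CPM, below the lowest treated liver of week 0 for both (416 and 157 CPM), while its ISG15 was at 650 CPM. These biopsies have no matched group, and no test was made.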
